A study of Mus musculus with 6 samples.

Results

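Brown preadipocytes (BAT, for brown adipose tissue) were compared before induction, on day 0, with brown cells 4 days into differentiation, in 1 RNA-seq library each. The values were FPKM, fragments per kilobase of exon per M (1e+06) mapped fragments. The comparison covered every gene with an FPKM of at least 1 in either library, which were 13526 of 34465 gene symbols. The 2 libraries belong to a series of 6, with BAT cells and white cells (WAT) on days 0, 4 and 6. Both kinds of cells were stromal vascular preadipocytes of BL6 mice at 3 weeks of age, from interscapular brown fat and from inguinal white fat, and 8 mice were used. They were grown to confluence and then received a differentiation medium with serum, insulin, dexamethasone, isobutylmethylxanthine and rosiglitazone, which was replaced after 48 h by serum medium without these agents. The day 0 cells were thus uninduced, and the day 4 cells had been without the inducing agents since day 2. No genetic change or sorting was named for any group, and the cells are a mixed stromal fraction rather than a clone.

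Brown adipocytes store fat in many small droplets and burn it in mitochondria, where uncoupling protein 1 turns the proton gradient into heat. Their precursors are fibroblast-like cells that divide, secrete matrix and carry stress fibres. On induction they stop dividing, CCAAT/enhancer binding proteins and PPARγ come on, and genes of lipid storage, lipid burning and mitochondria follow. Dexamethasone acts on the glucocorticoid receptor, isobutylmethylxanthine raises cyclic AMP by blocking its breakdown, and rosiglitazone is a PPARγ ligand.

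With 1 library on each day no test was possible. A gene was called higher or lower when log2(FPKM + 1) differed by at least 1, that is 2-fold, and "rose" and "fell" are used only of genes past that limit. All differences below are on the log2(FPKM + 1) scale, day 4 minus day 0, which understates the change of genes near 0. In such bulk RNA, fewer cells of a type cannot be told apart from less RNA per cell. Depth, read from the steps between low FPKM values, was 17.3 M fragments on day 0 and 20.2 M on day 4. The FPKM of all entries summed to 525714 on day 0 and 740823 on day 4. Scaling both libraries to the same sum shifts the median difference of the genes down, though not that of every gene near 0. The counts under that scaling are given beside the main ones.

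Of the 13526 genes, 2462 (18.2%) were at least 2-fold higher on day 4, 3340 (24.7%) were at least 2-fold lower, and 7724 were neither. The median difference was -0.21, and the middle 90% of genes lay between -2.45 and 2.38. With both libraries scaled to the same FPKM sum (TPM scaling) the counts were 1905 higher and 5623 lower, and with a median ratio of 1 they were 2992 and 2746. At a 4-fold limit 972 genes were higher and 1119 lower. At a 16-fold limit the order turned, with 155 genes higher and 114 lower. The FPKM minimum was passed on both days by 11136 genes, on day 0 alone by 1520 and on day 4 alone by 870, and genes that passed on 1 day alone, also those of the lists below, could change mainly in 1 direction. The 89 genes whose higher FPKM lay within 5% above the minimum of 1 had a median difference of -0.23, and the 109 left out within 5% below it had -0.25.

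**Figure D1:**
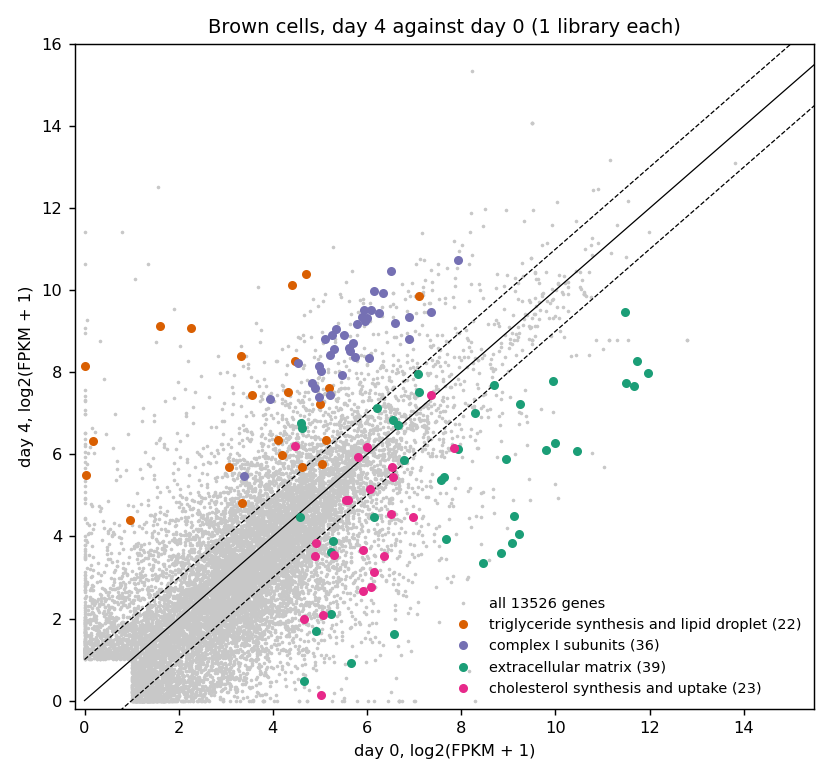
Level of each of the 13526 genes in brown cells on day 0 (x axis) and day 4 (y axis), both log2(FPKM + 1), with the solid line at no change and dashed lines at 2-fold. All complex I genes and all but Agpat1 of the triglyceride genes lie above the upper line, and most matrix and cholesterol genes below the lower line.

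The lineage markers matched the label. Zic1 and Lhx8, transcription factors of the brown lineage, had 14.5 and 23.4 FPKM in BAT on day 0 against 0.0852 and 2.39 in WAT on day 0. Adipoq, the adipocyte hormone adiponectin, went from 58.9 to 823 FPKM. Of other cell types, the macrophage list had 12 tested genes, of which 9 were higher and 1 lower on day 4 (against 18.2% and 24.7% of all tested genes), with a median of 1.44 (1.16 without genes at 0), at low levels. Of these 12 genes, 8 reached the minimum of 1 FPKM through day 4 alone and so could not fall, unlike tested genes at large. The FPKM of the macrophage list summed to 27.3 on day 0 and 84.7 on day 4. Lyz2 (lysozyme) was the most abundant, at 16.7 and 38.1, and C1qb, C1qc and Tyrobp were listed at 0 on day 0. Endothelial genes had 6 tested members, of which 0 rose and 2 fell, with a summed FPKM of 27.7 and then 15. Of those 6, 4 reached the minimum through day 0 alone and so could not rise. The myogenic factors Myod1 and Myf5 were listed at 0 in both libraries, and the Schwann cell list had 1 riser, S100b, among 5 tested genes. The part that such cells play in any difference below was not tested.

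The master regulators of fat cells rose, while the factors that precede them split. Pparg, the nuclear receptor that drives adipocyte genes, had 19.6 FPKM on day 0 and 171 on day 4, a difference of 3.06. Cebpa, its partner, had 41.1 and 261, and Mlxipl, the carbohydrate response factor ChREBP, had 4.43 and 63.7. Nr1h3, the oxysterol receptor LXRα, had 5.08 and 45.2, and Rxrg, a retinoid receptor that pairs with it, 0.121 and 4.17. Of the 10 late factors, 5 rose (50%) and 1 fell (10%), namely Ebf3, just past the limit. Of the 13 early factors, 4 rose and 4 fell (30.8% each), against 18.2% and 24.7% of all tested genes. Their median of -0.02 changed sign under median-ratio scaling. Cebpb, which is induced within hours of the cocktail, stood at 119 and 123 FPKM, and Srebf1, the factor of fatty acid synthesis, rose from 55.7 to 209. Among 11 inhibitors of adipogenesis Klf3, Twist2, Sox9 and Dlk1 fell, Dlk1 just past the limit, and Foxo1 rose from 1.81 to 9.67. The shares of inhibitors were thus 36.4% lower and 9.1% higher, against 24.7% and 18.2% of all tested genes.

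The brown lineage factors did not move as a group. Of 12 factors and coactivators, 4 rose (33.3%) and 3 fell (25%), against 18.2% and 24.7% of all tested genes. Their median of 0.24 was below 0 under TPM scaling. With the trend of differences with transcript length removed, 6 were higher and 3 lower, with a median of 0.76. The 4 risers before that correction act on mitochondrial, fatty acid and thermogenic genes. Ppara, a receptor for fatty acids, had 0.653 and 14.9 FPKM, Ppargc1b (the coactivator PGC-1β) 1.07 and 16.3, and Esrra (the receptor ERRα) 9.93 and 83.1. Irf4, a partner of PGC-1α, had 0.128 and 5.46. The lineage markers went the other way, Lhx8 from 23.4 to 4.13 and Zic1 from 14.5 to 3.27, as did Plac8, from 105 to 39.8. Prdm16, the brown fate coregulator, had 1.3 and 0.747 FPKM, Ebf2 6.43 and 13.5, and Ppargc1a (PGC-1α) 2.15 and 4.79, none of them past 2-fold.

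General adipocyte markers had a median of 5.44 against -0.21 over all tested genes, the highest of the 41 lists except with a pseudocount of 0.1, where brown effectors were higher (6.26 against 5.55). Of 14 markers 12 rose and 0 fell. Fabp4 (NCBIM37 chr3:10204347-10208576), the fatty acid carrier of the adipocyte cytosol, had 297 FPKM on day 0 and 41438 on day 4, when it took 5.59% of the FPKM of all entries. Rbp4 (retinol binding protein) went from 2.72 to 744, and Slc2a4 (the insulin-dependent glucose transporter GLUT4) from 0.332 to 226. Lpl (lipoprotein lipase) and Cfd (the secreted protease adipsin) were already present, with 793 and 68.6 FPKM on day 0 and 1227 and 96.8 on day 4. Cfd reached 748 FPKM in the day 6 library.

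**Figure D2:**
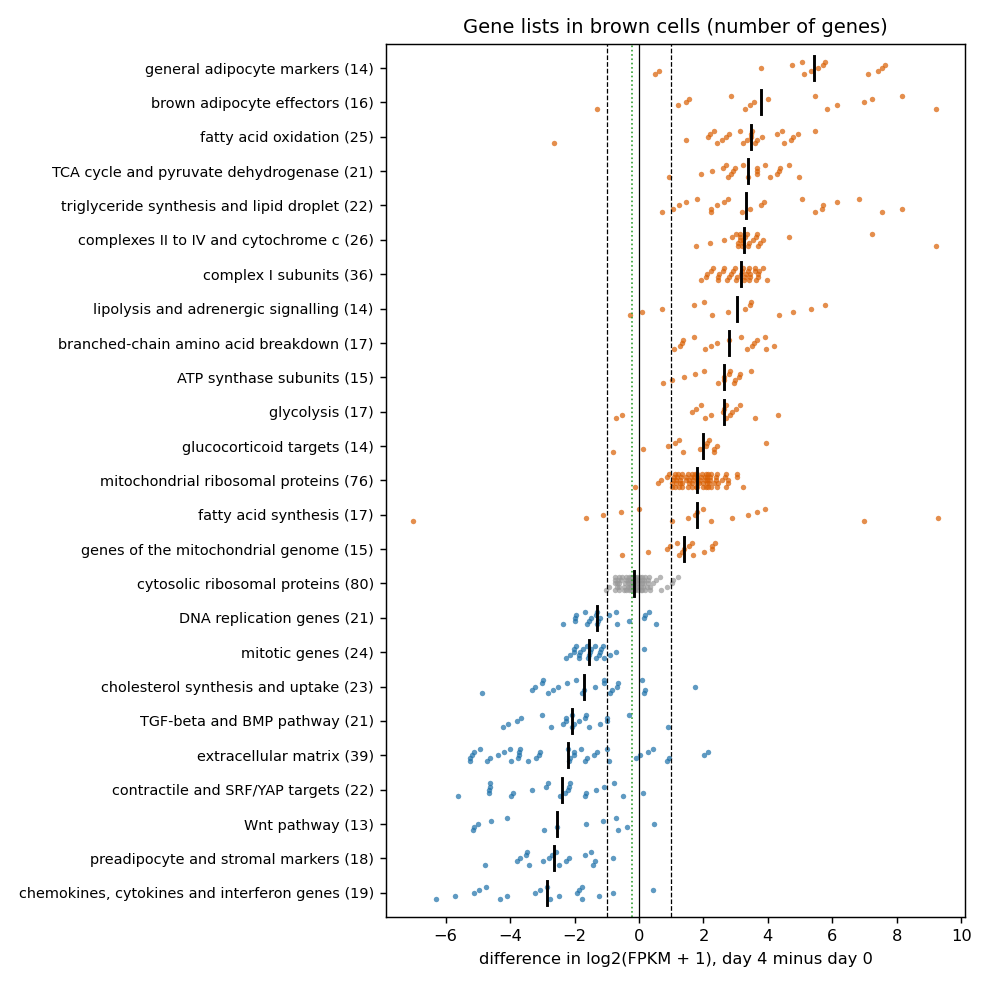
Difference in log2(FPKM + 1), day 4 minus day 0, of each tested gene (points) in 25 of the 41 lists, with the number of genes in brackets, the list's median as a black bar and the median of all tested genes as a dotted green line. Lists are ordered by their median, orange where it is at least 1, blue where it is at most -1, and dashed lines mark 2-fold.

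Nearly the whole pathway of triglyceride synthesis and droplet formation was higher on day 4. Of 22 genes, 21 rose and 0 fell, with a median of 3.32. Gpd1, which makes glycerol 3-phosphate, had 3.77 FPKM on day 0 and 544 on day 4, and Pck1, the enzyme of glyceroneogenesis, 0.0234 and 43.9. Agpat2, the second acyltransferase of the pathway, had 20.2 and 1108. The last step uses 2 enzymes, and both rose, Dgat1 from 21.3 to 308 and Dgat2 from 18.9 to 181. The droplet coat proteins rose by very different amounts. Plin5 had a difference of 6.16 and Plin1 of 5.07, whereas Plin2, the coat of small droplets in most cells, had 2.75 and Plin3 1.23. Cidec, which fuses droplets, went from 2.04 to 563, and Agpat1 was the member that did not pass, at 0.72.

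Genes of lipid release rose along with those of storage. Of 14 genes of lipolysis and its adrenergic control, 11 rose and 0 fell, with a median of 3.03. The triglyceride lipase Pnpla2 (ATGL) had 37.9 and 2132 FPKM, the diglyceride lipase Lipe (HSL) 8.99 and 399, and the ATGL inhibitor G0s2 25 and 1338. Adrb3, the adrenergic receptor of adipocytes, had 6.05 FPKM on day 0 and 67.6 on day 4. Aqp7, the channel through which glycerol leaves, had 2.72 and 40.3, and the receptor Adrb1 was near its floor with 0.252 and 1.07.

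Effectors of brown fat were low or listed at 0 on day 0 and mostly present on day 4. Of 16 tested effectors, 15 rose and 1 fell (Acot11, a thioesterase, at -1.31), with a median of 3.78. The list has 22 genes in the table, and 7 of the tested ones reached the minimum of 1 FPKM through day 4 alone and so could only rise. The list holds 5 tested genes at 0 on day 0, and without them the median was 3.99. It was 6.26 with a pseudocount of 0.1, 3.03 with 5, and 4.73 with an FPKM minimum of 5. Cidea, a droplet protein of brown fat, was listed at 0 on day 0 and had 284 FPKM on day 4. Elovl3, an elongase of brown fat, went from 0 to 125 and was back at 7.94 in the day 6 library. The respiratory subunits Cox7a1 and Cox8b, which replace their general forms in brown fat, heart and muscle, had 1.11 and 1.88 FPKM on day 0 and 1246 and 428 on day 4.

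Ucp1 itself (NCBIM37 chr8:85814247-85822355), the uncoupling protein, stayed low. It was listed at 0 on day 0 and had 9.92 FPKM on day 4, about 285 fragments at the depth of that library, and 3.65 on day 6. Dio2, the thyroid hormone activator of brown fat, did not reach an FPKM of 1 in either library, with 0.0205 and 0.507. White cells on day 4 had 0.477 FPKM of Ucp1, 34.1 of Cidea, 1054 of Cox7a1 and 189 of Elovl3. In WAT 11 of the 16 effectors were higher on day 4 and 0 lower, with a median of 3.11, and the difference between the cell types was not tested.

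**Figure D3:**
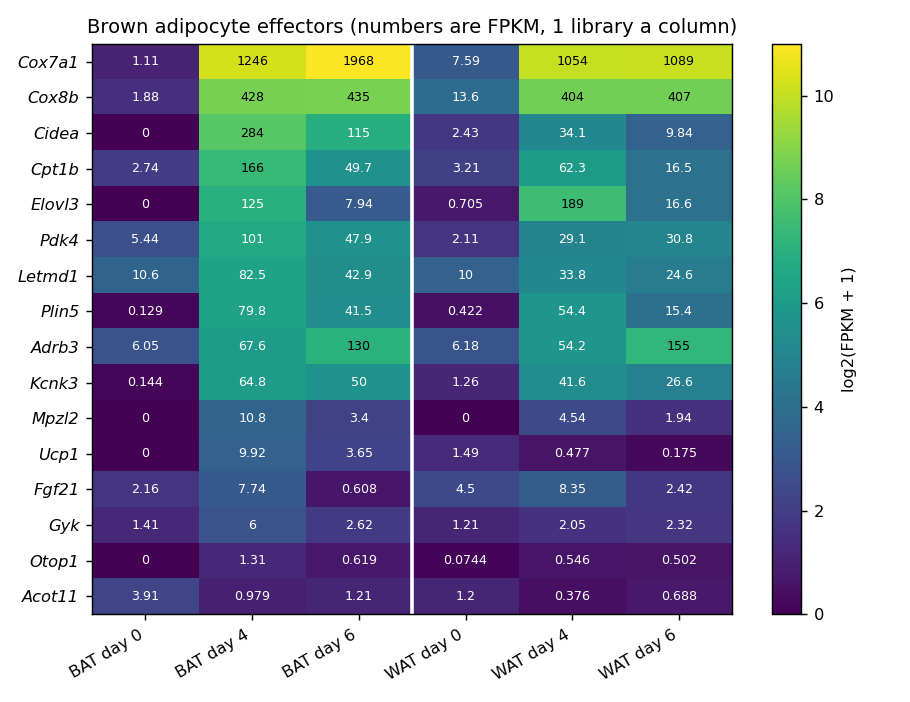
FPKM of the 16 tested brown effectors (rows, in order of their day 4 level) in the 3 BAT and 3 WAT libraries (columns), with colour for log2(FPKM + 1). In brown cells 15 rows brighten from day 0 to day 4, and Ucp1 goes from 0 to 9.92 FPKM.

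Nuclear genes of the respiratory chain rose together. All 36 tested subunits of complex I, which takes electrons from NADH, were at least 2-fold higher, between 1.92 (Ndufa2) and 3.97 (Ndufb9), with a median of 3.18. In complexes II to IV and cytochrome c all 26 rose, with a median of 3.26. Cycs (cytochrome c) went from 30.1 to 786 FPKM. Of 15 ATP synthase subunits 14 rose, with a median of 2.64. The 2 smallest differences were in the c ring, where Atp5g1 had 0.75 and Atp5g2 1.02, and Atp5b of the catalytic head had 3.49. These are short transcripts, which ran higher as a class in this comparison, and with the length trend removed the medians were 2.56 for complex I, 2.52 for complexes II to IV and 2.09 for ATP synthase. In WAT the same 3 lists had medians of 1.69, 1.92 and 1.30 from day 0 to day 4. The median FPKM of these lists on day 0 was 50.1, 70.9 and 120 in BAT and 139, 190 and 358 in WAT. By day 4 it was 448, 834 and 807 in BAT and 429, 735 and 892 in WAT. The difference between the cell types was not tested.

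Transcripts of the mitochondrial genome had a lower median than the nuclear subunits. Of 15 genes 11 were higher and 0 lower, with a median of 1.41, which was 0.92 under TPM scaling and 0.54 with the length trend removed. With that trend removed, which covers only the protein-coding members, 4 were higher and 1 lower. mt-Co1 had 1912 and 5664 FPKM and mt-Nd4l, which overlaps mt-Nd4 so that reads of both are hard to assign, 397 and 274. Their share of all FPKM went from 2.84% to 5.54%, and it was 15.3% on day 6. The proteins of the mitochondrial ribosome, which translates these transcripts, rose in 71 of 76 cases with a median of 1.81, and with the length trend removed in 51, with a median of 1.32. Cytosolic ribosomal proteins did not, with 3 higher and 1 lower of 80 and a median of -0.16 that was 0.09 under median-ratio scaling. With the length trend removed 1 cytosolic member was higher and 28 lower, with a median of -0.84. Of 15 regulators of mitochondrial biogenesis 8 rose, among them Tfam, which packages the mitochondrial genome, at 1.07, and Pprc1, a coactivator of growth, fell by 1.93.

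Genes that feed the respiratory chain rose with it. Of 25 genes of fatty acid oxidation 24 rose and 1 fell, with a median of 3.48. The exception was at the entry step, where the carnitine transferase of liver type, Cpt1a, fell by 2.65 to 2.34 FPKM and that of muscle type, Cpt1b, rose from 2.74 to 166. The liver form was the more abundant on day 0 and the muscle form on day 4. Acadvl, the long-chain dehydrogenase, had 27.7 and 875, and Hadhb of the trifunctional protein 33.7 and 952. In the TCA cycle and pyruvate dehydrogenase 20 of 21 rose, with a median of 3.37, led by Pcx (pyruvate carboxylase) at 4.96. Suclg2, a subunit of succinyl-CoA ligase, was short of 2-fold at 0.92.

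Glycolysis and amino acid breakdown rose too. In glycolysis 15 of 17 genes rose, with a median of 2.62, and the 2 that did not were the general transporter Slc2a1 at -0.52 and the general hexokinase Hk1 at -0.70. Hk2, the insulin-dependent hexokinase, went from 12.4 to 98.8 FPKM. Gapdh, often taken as a reference gene, but with many pseudogenes that make its value uncertain, rose from 82.9 to 509 in brown cells, and white cells had 1049.5 and 717. All 17 genes of branched-chain amino acid breakdown rose, with a median of 2.80. Bcat2, the first enzyme, had 28.6 and 374 FPKM and Bckdha of the second step 15.8 and 309.

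Fatty acid synthesis was split. Of 17 genes 12 rose and 3 fell, Acly, at an entry of 0, among them, with a median of 1.79. Thrsp, a lipogenic protein of fat and liver, had 1.56 FPKM on day 0 and 1604 on day 4. Scd1, the Δ9 desaturase, had 293 and 3747 and Fasn, the fatty acid synthase, 92.7 and 981. The desaturase of polyunsaturated fatty acids, Fads2, fell from 69.2 to 31.6 and the elongase Elovl6 from 12.5 to 3.3. Acly, which makes the acetyl-CoA used by Fasn, had 129 FPKM on day 0 and was listed at 0 on day 4, on day 6 and in WAT on day 4, but at 277 in WAT on day 6. An exact 0 in such a table can be a failed estimate, so no fold is given for it. In fatty acid uptake 5 of 12 genes rose, with Cd36 from 11.5 to 585, and Fabp3, the carrier of muscle and active brown fat, fell from 22.6 to 2.6.

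Genes of hormone response were mixed. Of 15 genes of insulin signalling 9 rose and 2 fell. Pde3b, which ends the cyclic AMP signal on insulin, went from 1.43 to 65.2 FPKM, and Igf1r, the IGF-1 receptor, from 15.1 to 0.748. The kinase Akt2 rose by 1.67 and Akt1 fell by 1.28. Of 14 glucocorticoid targets 11 rose and 0 fell, with a median of 1.98. Fkbp5, the co-chaperone of the receptor, had 9.89 FPKM on day 0, 168 on day 4 and 44.9 on day 6. Of 15 adipokines and secreted factors 8 rose and 1 fell, with Retn (resistin) among the risers, from 6.34 to 253, while Lep (leptin) was below 1 on both days with 0 and 0.245.

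Genes of cholesterol synthesis mostly fell. Of 23 genes, 15 fell and 1 rose, with a median of -1.70. Idi1, the isomerase that makes both isoprene units available, had 69.9 FPKM on day 0 and 7.78 on day 4, a difference of -3.01. Sqle, which oxidises squalene, had 90.3 and 22.3. Stard4, a sterol carrier, had 24.4 and 2.96. Srebf2, the factor that drives the pathway, had 59.4 and 11.8. The fall did not reach every enzyme. Pmvk rose from 21.1 to 73.1, Lss, Acat2 and Insig1 lay between 0.08 and 0.19, and Hmgcs1 was listed at 0 in every library and so has no value. In WAT 14 of the same genes were lower and 2 higher on day 4. The sterol regulatory element, searched as TCACNCCAC on both strands, was in 0 of 17 RefSeq promoters (GRCm38.p6, 250 bases before to 50 after the start) of the 14 members matched there, and in 1.24% of all 32851 promoters.

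**Figure D4:**
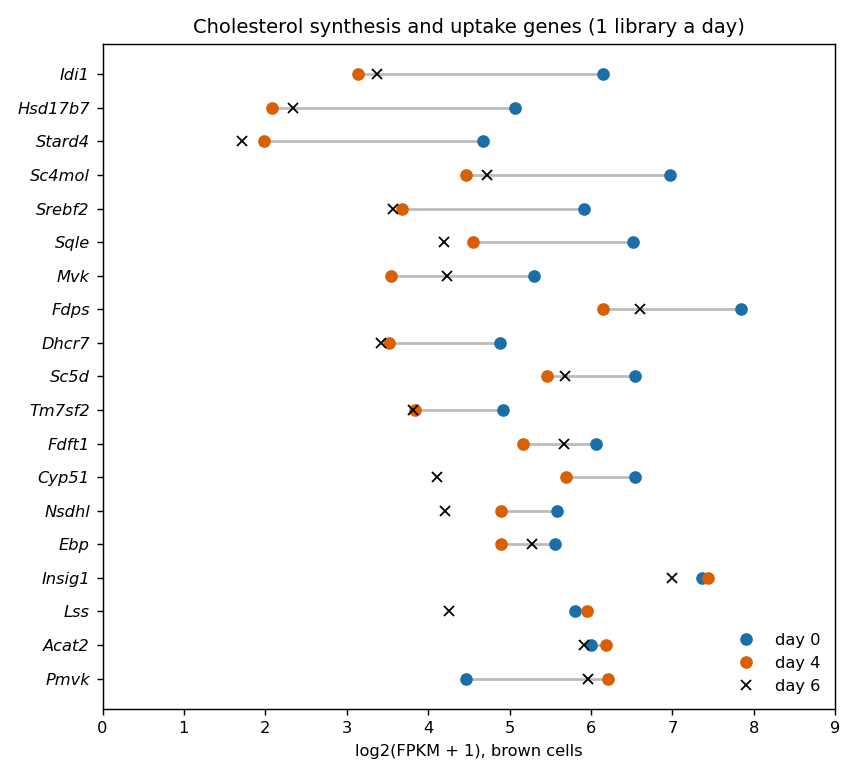
Level of 19 of the 23 cholesterol genes in brown cells, log2(FPKM + 1), on day 0 (blue), day 4 (orange) and day 6 (cross), in the order of their difference. For 11 genes the orange point is at least 2-fold left of the blue one, and for Pmvk it is at least 2-fold to the right.

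Stromal markers fell almost without exception. Of 18 preadipocyte and stromal markers 17 fell and 0 rose, with a median of -2.63. Pdgfra and Pdgfrb, the PDGF receptors of stromal cells, had 92.8 and 225 FPKM on day 0 and 7.7 and 7.17 on day 4. Ly6a (Sca-1) went from 600.0 to 105. Vim, the filament protein vimentin, was the member that did not pass, with 721 and 409.5.

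The matrix fell with it, in a graded way. Of 39 matrix genes 30 fell and 2 rose, with a median of -2.20. Col1a1, the chain of fibrillar collagen that was the most abundant of the list on day 0, had 4004 and 253 FPKM, and Fn1 (fibronectin) 1407 and 66.9. Mmp14, a membrane protease, had 541 and 13.3, and Thbs1 (thrombospondin) 600.0 and 15.6. Basement membrane collagen moved less, with Col4a1 at -1.01 and Col4a2 at -1.30. The microfibril chains Col6a1, Col6a2 and Col6a3 did not pass, at 0.87, 0.92 and 0.43. The risers were Col15a1, from 23.3 to 107, and Col5a3, from 23.6 to 99. Matrix genes have long transcripts, and with the length trend removed the median was -2.31.

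Stress fibres and growth factor pathways fell as well. Of 22 contractile genes and targets of SRF and YAP 19 fell and 0 rose. Acta2, smooth muscle actin, had 183 FPKM on day 0, 2.79 on day 4 and 37.9 on day 6, and Ctgf, a YAP target, 120.2, 3.75 and 9.34. Cyr61, another YAP target, stood at 100.1 and 109.7. In the TGF-beta and BMP pathway 18 of 21 genes fell and 0 rose, ligands (Inhba at -3.02), receptors (Tgfbr1 at -2.27), inhibitors (Grem1 at -3.67) and targets (Smad7 at -2.03) alike. In the Wnt pathway 9 of 13 tested genes fell, of 23 in the table, with a median of -2.54, which was -0.70 with no FPKM minimum. They included the secreted antagonists Sfrp1, from 339.8 to 13, and Dkk3, from 80.3 to 1.57, as well as the receptor Fzd1, at -2.95, and Wnt10b was below 1 on both days.

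Chemokine and interferon genes had a median of -2.87, the lowest of the 41 lists except with a pseudocount of 5, where stromal markers were lower (-2.17 against -1.95), and an FPKM minimum of 5, where Wnt genes were (-3.53 against -3.15). Of these genes 17 of 19 were lower and 0 higher. Ccl2, which draws monocytes, had 117 FPKM on day 0 and 3.38 on day 4, and Cxcl12, the stromal chemokine, 1055 and 29.5. Il6 went from 7.48 to an entry of 0. Of interferon-induced genes Isg15 fell by 2.78 and Ifit3 by 3.22, whereas the factor Irf7 did not pass, at -0.81. In the day 6 library 10 of these genes were higher again, with a median of 1.03 for day 6 minus day 4, a comparison that shares the day 4 library.

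Genes of mitosis and DNA replication fell. Of 24 mitotic genes 21 fell and 0 rose, with a median of -1.54, and of 21 replication genes 13 fell and 0 rose, with a median of -1.31. Levels were low on day 0 already. Mki67, the proliferation antigen, had 4.65 FPKM on day 0 and 0.394 on day 4, Ccnb1 (cyclin B1) 11.9 and 1.68, and Mcm5 of the replicative helicase 5.62 and 0.285. Cenpa, the histone of the centromere, was the mitotic gene that was not below its day 0 level, with 8.34 and 9.39. Because many of these genes are near 1 FPKM the pseudocount sets the size of the fall, and with a pseudocount of 5 the mitotic median was -0.72 and the replication median -0.61, both short of 2-fold. The 16 G1 genes did not move as a group, with 2 higher (12.5%) and 4 lower (25%) against 18.2% and 24.7% of all tested genes. The risers were the inhibitors Cdkn2c, from 5.44 to 64, and Cdkn1a (p21), from 64.6 to 178. Ccnd1 (cyclin D1), Ccnd2, Cdk4 and Rbl2 fell.

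The promoters of these genes share letters. Mitotic promoters are known for a CCAAT box and a CHR element, the sites of NF-Y and of the DREAM and MuvB complexes. Among the 21 RefSeq promoters of 20 mitotic members, 17 (81%) held TTTGAA or TTCGAA on either strand against 19.2% of all 32851 promoters of the same length, and 19 (90.5%) held CCAAT against 37.4%. For replication genes, whose promoters are known for E2F sites, 7 of 22 (31.8%) held TTTCCCGC, TTTGGCGC, TTTCGCGC or TTTGCCGC against 2.26%. Of the 16 mitotic members with CHR letters 13 fell, and of the 4 without them 4 fell. Of the 7 replication members with E2F letters 5 fell, and of the 11 without them 7 fell. A match is not a bound site. The bases just upstream of the start are shown for 4 mitotic and 2 replication genes, written in the direction of the gene, to let the spacing be read. Capitals mark the CCAAT box and CHR letters, read on either strand (ATTGG and TTCAAA are the reverse readings), in the first 4 and the E2F letters, which overlap on both strands in Mcm5 and Mcm6, in the last 2 (RefSeq, GRCm38.p6).
Cdk1 (chr10:69352913-69353032, minus strand): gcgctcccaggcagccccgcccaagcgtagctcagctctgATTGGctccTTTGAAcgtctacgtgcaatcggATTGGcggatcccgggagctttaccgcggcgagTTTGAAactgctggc
Cdc20 (chr4:118437344-118437463, minus strand): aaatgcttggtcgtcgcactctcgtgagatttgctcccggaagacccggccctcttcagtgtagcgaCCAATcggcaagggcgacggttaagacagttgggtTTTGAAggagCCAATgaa
Kif11 (chr19:37376262-37376381, plus strand): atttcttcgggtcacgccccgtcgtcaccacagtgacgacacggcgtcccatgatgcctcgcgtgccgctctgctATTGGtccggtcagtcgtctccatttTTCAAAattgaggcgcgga
Top2a (chr11:99024190-99024309, minus strand): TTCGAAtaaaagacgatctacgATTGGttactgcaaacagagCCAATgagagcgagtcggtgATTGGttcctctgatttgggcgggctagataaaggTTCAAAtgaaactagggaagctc
Mcm5 (chr8:75109339-75109508, plus strand): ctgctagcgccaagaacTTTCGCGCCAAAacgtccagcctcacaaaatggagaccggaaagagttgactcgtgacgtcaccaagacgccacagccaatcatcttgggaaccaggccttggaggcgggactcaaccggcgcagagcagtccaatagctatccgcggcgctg
Mcm6 (chr1:128359706-128359825, minus strand): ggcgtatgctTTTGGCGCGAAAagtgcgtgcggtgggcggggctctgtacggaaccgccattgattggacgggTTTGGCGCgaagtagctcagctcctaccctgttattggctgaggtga

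Of 9 tested genes of the DNA methylation machinery 3 fell and 0 rose, a share of 33.3% that fell against 24.7% of all tested genes, with a median of -0.60. With the length trend removed 4 were lower and 1 higher. Dnmt1, which copies methylation after replication, had 14.2 FPKM on day 0 and 2.58 on day 4, and Uhrf1, which brings it to new DNA, 6.08 and 1.09. The other member that fell was Gadd45b, a stress protein tied to demethylation, from 28.4 to 8.1. The de novo enzyme Dnmt3a had 6.09 and 7.78, and the oxidase Tet2 2.75 and 2.17, with differences of 0.31 and -0.24.

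The largest single differences add genes outside these lists. Among protein-coding genes with an FPKM of at least 10 on either day and no exact 0, the falls were led by 9930013L23Rik, the hyaluronan-binding gene also called Cemip, from 284 to 0.635 FPKM. It was followed by Cxcl5, a neutrophil chemokine, from 90.1 to 0.153, and Wnt16, a Wnt ligand, from 96.8 to 0.466. Saa3, an acute-phase protein of fat, went from 2094 to 51. Fgf7, a growth factor of stromal cells for epithelium, fell from 70.6 to 0.982 and Prl2c2 (proliferin) from 44.2 to 0.0388, the latter uncertain because its family has near-identical copies. Ccl8, Lgi2, Acta2, Anpep, Phldb2, Mmp14, Thbs2, Thbs1 and Mmp3 made up the rest of the 15, with differences from -5.73 to -5.16. The rises held Thrsp, Cox7a1, Rbp4, Cidec, Slc2a4, Cox8b, Fabp4 and Gpd1, given above, and 3 more metabolic genes. Adig (adipogenin) went from 3.05 to 400.5, Cdo1 (cysteine dioxygenase) from 11.8 to 1075 and Aldh1a7 (an aldehyde dehydrogenase) from 0.557 to 126.

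The other 4 of the 15 largest rises were predicted loci. Gm10800 (NCBIM37 chr2:98506704-98507458) had 1.97 FPKM on day 0 and 5889 on day 4, the largest difference among the genes with no exact 0, at 10.96. Gm10718, Gm10721 and Gm11167 on chromosome 9 had below 1 on day 0 and 614, 432 and 98.9 FPKM on day 4. In WAT they ran the other way, Gm10800 from 14499 to 4108 and Gm10718 from 1380.0 to 409.7. These loci share sequence with each other. Among 11 such loci of chromosomes 2 and 9, between 48.8% and 95% of the 21-base words of a transcript also occur in another, so that reads can be split or shared between them and their values are uncertain. Their summed FPKM was 2.39 in BAT at the start, 7695 by day 4 and 5557 by day 6, against 18628, 5346 and 456 in WAT at the same times. The brown library of day 0 thus stood apart from all 5 others. The longest run shared by the transcripts of Gm10800 (chr2:98506706-98506772, minus strand) and Gm10718 (chr9:3024449-3024515, plus strand) is 67 bases, in transcripts of 660 and 675 bases. The positions are those of NCBIM37, the mm9 build, and the run occurs 7 times in that genome on 4 chromosomes or contigs:
shared run: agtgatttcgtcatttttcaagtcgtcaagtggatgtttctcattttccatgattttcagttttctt

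Entries of exactly 0 weighed on few genes. Of the tested genes 340 (2.51%) were listed at 0 in 1 of both libraries, 180 on day 0 and 160 on day 4, and all of them count as called. In 164 of them the other library was below 2 FPKM, and in 65 it was at least 10. The protein-coding genes with the highest value opposite a 0 were, on the rising side, Gm10801 (543 FPKM on day 4), Cidea, O3far1, Elovl3, Gm10720, Gm10717, 1110006G14Rik and Gm11168. O3far1, the fatty acid receptor GPR120, had 156 FPKM on day 4 and 84.6 in WAT on day 4, and it was listed at a value above 0 in every other library. On the falling side were Acly, described above, and Slpi, a protease inhibitor, at 15.3 FPKM on day 0. Without these genes 2282 were higher and 3180 lower of 13186.

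Differences fell with transcript length. Over 12172 protein-coding genes Spearman's correlation of the difference with the longest annotated transcript was -0.34, a description across genes, which are not independent. It was -0.05 for day 4 minus day 0 in WAT and -0.24 for day 6 minus day 4 in BAT, which shares the day 4 library. In the class of shortest genes, 1 of 10 classes of equal size, with a median length of 870 bases, the median difference was 0.56, with 37.7% higher and 12.6% lower. In the class of longest genes, with a median length of 7663 bases, it was -0.89, with 4.6% higher and 45.6% lower. The correlation was -0.37 among genes with at least 10 FPKM and -0.32 among genes with a single transcript. After removal of the trend by a local regression, 1864 genes were higher and 2947 lower of 12172, of which 1632 and 2462 were also called before. The part of library preparation, RNA quality and biology in the trend was not tested.

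**Figure D5:**
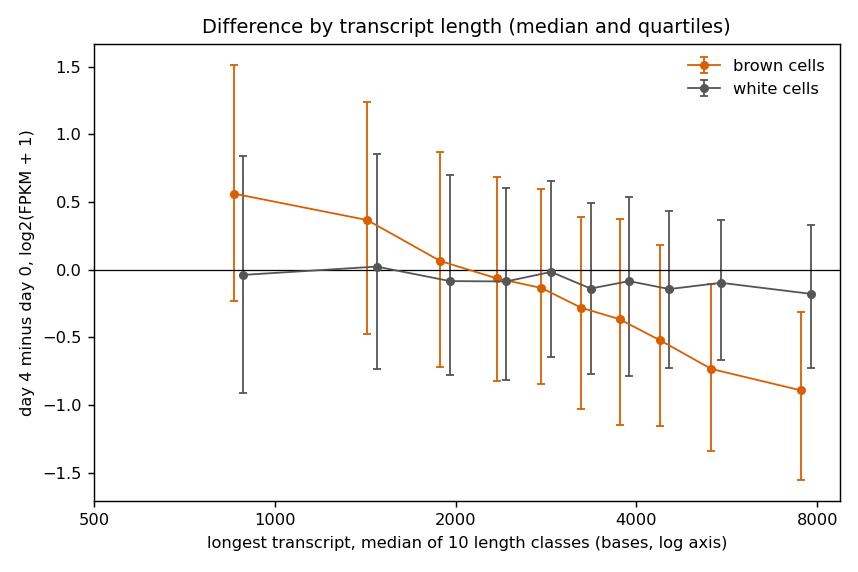
Difference in log2(FPKM + 1), day 4 minus day 0, against the median length of the longest transcript in 10 classes of 12172 protein-coding genes, with the median (points) and the quartiles (bars), in brown (orange) and white (grey) cells, drawn slightly apart. The brown medians run from 0.56 to -0.89 from the shortest to the longest class, and the white medians from -0.04 to -0.18.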

How the data were processed

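RNA was extracted with a Qiagen miRNeasy kit, and total RNA libraries were made with a directional NEBNext kit and sequenced with paired-end reads. Per the labels, the authors aligned the reads with TopHat2 2.0.11 to mm9 and estimated the deposited FPKM values per gene with Cufflinks 2.1.1. The annotation is not given in the sources used here, and 97.9% of gene IDs matched GENCODE M1 (NCBIM37, the same build as mm9), from which transcript lengths and gene types were taken. The columns headed SUB were read as WAT because inguinal fat lies under the skin.

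For a symbol with several entries the one with the highest mean FPKM was kept, which left out 3376 of 37841 entries. Differences were taken on log2(FPKM + 1), for genes that reached 1 FPKM on either day. Genes were called at 2-fold, with no test, since each condition has 1 library. Reads were not counted in the file, and the depth comes from the steps of low FPKM values, of which 89.4% (day 0) and 86.2% (day 4) were whole numbers of fragments to within 10%. The trend with transcript length was removed with a lowess curve (span 0.3) over protein-coding genes. In data simulated at similar depths, all of 200 genes changed 4-fold were recovered among 11659 genes, and among 11677 genes with a simulated length trend. The simulation covers counting error and not the spread between samples. A 4-fold change lies well past the 2-fold limit, so full recovery was largely set by the design. It therefore cannot show how reliable the calls are near the 2-fold limit or near 1 FPKM. Tables were handled in pandas 2.3.3 and numpy 2.4.6 under Python 3.11.15, the lowess came from statsmodels 0.14.6, correlations from scipy 1.17.1, and plots from matplotlib 3.10.9. Promoters are RefSeq's, on GRCm38.p6, and were matched by symbol.

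The genes named are members of 41 lists, the 15 largest differences each way among protein-coding genes with at least 10 FPKM and no exact 0, and up to 10 protein-coding genes each with an exact 0 or with opposite directions in BAT and WAT. Members and lists were chosen with earlier results of these data known. The alternatives were other pseudocounts, folds, FPKM minima, scalings and gene sets, and the length correction. Some members of the lists are counted but not reported here by name. Methylation data were not used here.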

Additional observations from a re-analysis of the deposited data

Results flagged for a closer look

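Of 7644 protein-coding genes with at least 10 FPKM in any of the 4 libraries of days 0 and 4 and no exact 0 in them, 34 were at least 2-fold higher from day 0 to day 4 in one cell type and at least 2-fold lower in the other, 18 of them higher in BAT and 16 lower. With 1 library each the difference between the cell types was not tested. The gap is the BAT difference less the WAT difference, on the log2(FPKM + 1) scale. The widest gaps were those of the predicted loci described above, Gm10800 at 12.77, Gm10718 at 10.96, Gm10721 at 10.06 and Gm11167 at 7.999. These 4 loci and all 9 of a second set, described next, are among the 18 genes higher in BAT. Most of those 18 thus have uncertain values.

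A second set of predicted loci followed, with Gm17385 at 4.79, Gm17386 at 4.66, Gm17555 at 4.58, Gm17316 at 4.52 and Gm17312 at 4.51. These belong to 9 loci that share between 24.1% and 98.6% of their 21-base words with each other, so their values are uncertain, and their summed FPKM was 25.6, 244 and 136 in BAT and 461, 146 and 26.1 in WAT on days 0, 4 and 6. In both sets the highest library was WAT on day 0, which was also the shallowest at 9.15 M fragments. The lowest was BAT on day 0, in the second set with WAT on day 6 nearly as low (25.6 and 26.1). The part of mapping, RNA composition and biology in this order was not tested.

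The other gene among the 10 widest gaps was Nid2, a basement membrane protein, with a gap of -4.39. It had 48.4 FPKM in BAT on day 0 and 5.1 on day 4, and 2.9 and 9.07 in WAT.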

How the results depend on the processing

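No paired analysis was possible because each condition had 1 library and the labels give no replicate numbers, and for the same reason no library could be left out. The cell type, the culture and the library cannot be told apart, and depth limits genes near 1 FPKM: 574 tested genes had under 20 estimated fragments on both days. The 2462 genes that were higher became 972 at a 4-fold limit and 1621 with a pseudocount of 5. The 3340 that were lower became 5059 at 1.5-fold, 1119 at 4-fold, 1706 with a pseudocount of 5 and 5623 under TPM scaling. Rescaling without the mitochondrial genome gave 1683 higher and 4678 lower. Relative to FPKM as deposited, the median of all genes shifted by -0.47 under TPM scaling, by -0.39 without the mitochondrial genome and by 0.23 under median-ratio scaling. The correlation with length was -0.011 once the trend was removed. The 340 genes at an exact 0 in 1 library became 4175 with no FPKM minimum, 85 with a minimum of 5, 524 under TPM scaling and 153 among protein-coding genes, with or without the length correction. The complex I median was 2.56 with the length trend removed. The mitotic median was -2.35 with a pseudocount of 0.1, -0.72 with 5 and -2.14 under TPM scaling. Of 41 lists, 22 had a median that crossed the 2-fold limit or moved by over 1.5-fold under an alternative, and 6 changed sign under a scaling, each with a median of at most 0.25 in size. Of 199 genes named, 39 lost or gained the 2-fold call under at least 1 alternative and 0 reversed.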

Other observations

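Among immediate early genes and cyclic AMP targets 6 of 15 (40%) were at least 2-fold higher on day 4 and 2 (13.3%) lower. The shares over all tested genes were 18.2% and 24.7%, and the median of the list was 0.52. The higher ones held the AP-1 subunits Fos, with 3.43 FPKM on day 0 and 121 on day 4, Fosb, with 0.13 and 8.01, and Jun, with 13.8 and 42.6, as well as Egr1, with 16.3 and 75.3. Pde4d, which breaks down cyclic AMP, was at 25.8 FPKM on day 4, a difference of 3.71, and its relative Pde4b had -1.25. In WAT the list had a median of -0.22, with Fos at 16 and 66.1 FPKM.

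The unfolded protein and amino acid response had 9 of 13 genes short of 2-fold, and its median of 0.07 was below 0 under TPM scaling. In that list 1 gene was higher (7.7%) and 3 were lower (23.1%), against 18.2% and 24.7% of all tested genes. Trib3, a target of the stress factor CHOP, rose from 61.1 to 182 FPKM, and the chaperones Hsp90b1 and Pdia4 and the serine synthesis enzyme Phgdh fell, Hsp90b1 from 465 to 183. The metallothioneins Mt1 and Mt2, which bind zinc and respond to glucocorticoids, went from 736 to 3941 and from 1041 to 4536 FPKM.

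The skeletal muscle list had 2 tested genes, of which Des (desmin) rose from 0.291 to 5.69 FPKM and Tnnt3 had 2.47 and 3.58. The ERR element TCAAGGTCA was in 1 of 19 matched promoters of complexes II to IV and in 0.423% of all promoters.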
